A study of Mus musculus with 12 samples.

Results

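Ion channel genes were taken as every gene in the deposited peak tables whose symbol begins with Kcn, Cacn, Clcn, Gabr, Scn, Trpc, Trpm, Trpv, Gria, Grik, Grim or Grin in the form used for channel subunits. The choice rested on the symbol and on no measured value. It gave 47 genes of the 6097 gene identifiers that the 4 tables list, and each of the 47 was found by its identifier in the GENCODE M21 annotation as a protein-coding gene. No Trpm, Trpv or Gria gene was among them. The symbols name pore-forming subunits, auxiliary subunits and members of the chloride channel family, some of which are transporters.

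N6-methyladenosine (m6A) is a methyl mark on adenosines inside messenger RNA, written largely by a complex whose core is METTL3, the catalytic subunit, and METTL14, its RNA-binding partner. The mark is known to sit mostly at a short motif, DRACH, of which GGACT is the best known form, and to lie often in long internal exons and near stop codons. Ion channels are membrane pores. Voltage-gated potassium, sodium and calcium channels open with the membrane potential, inward rectifiers and two-pore potassium channels help set the resting potential, and glutamate and GABA receptors open when a transmitter binds. Most of these genes are best known from neurons and muscle.

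The cells were J1 mouse embryonic stem cells, an established line, grown with leukemia inhibitory factor on irradiated mouse embryonic fibroblasts as feeders. Lentiviral shRNA was used to knock down Mettl14 or Mettl3, the control virus carried a scramble hairpin, and all 3 groups were kept under puromycin. Hairpin names and numbers were not given in the sources used here, nor was any removal of feeder cells. Fragmented poly(A) RNA was pulled down through its m6A by antibody. Each of the 3 groups has 2 IP libraries, and 6 further libraries with no antibody were not analysed here.

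Each of the 4 tables sets 1 knockdown library against 1 scramble library. Set 1 and set 2 are named here after the scramble library, so both knockdowns of a set share their control and are not independent. The series text speaks of 1 biological replicate for each library type, so the spread between the libraries of a group may be technical. The 6 IP libraries held 4367 to 7886 peaks, and neither Mettl3 nor Mettl14 had a peak in any of them. The tables give peaks and no expression, so the knockdown itself could not be checked, and a weaker peak cannot be told apart from less RNA of that gene. Peaks in both scramble libraries were listed for 3 of 12 stem cell markers, 0 of 12 feeder fibroblast markers and 0 of 10 neuron markers, where a marker without a peak says nothing of its level.

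Peaks were merged into sites across libraries, and 14 sites had a peak in all 6 libraries, in both scramble libraries alone or in all 4 knockdown libraries alone. Of these, 11 hold a GGACT, and 10 are shown here. The motif was searched in the scramble set 1 peak of a site, or for Kcnq3 in its Mettl14 knockdown set 1 peak. Each is given with the GGACT nearest the centre of that peak in capitals, from 26 nt (Kcnh3) to 596 nt (Kcnj12) away from it. Whether that GGACT is methylated was not tested. The stretches are 29 bases 5′ to 3′ on the transcript strand from the GENCODE M21 transcripts (mm10), written with T for U. The first 7 come from sites with a peak in all 6 libraries, the next 2 from sites with a peak in both scramble libraries and in no knockdown library, and the last from the site with a peak in all 4 knockdown libraries and in no scramble library.
Cacna1b: ccggcatgcacaGGACTcaagcaaggagg
Grik3: cagaagaaatatGGACTctataaaaatcc
Grik5: gcgcctcctagtGGACTtgagcaagggtg
Kcnj12: ctcaggagttagGGACTctgctggaggcc
Kcnj4: tcactacaaggtGGACTactcacgattcc
Kcnk5 coding site: gtgggaagccctGGACTaccacccgctca
Kcnj3: gagtgtttagatGGACTagatgacattag
Kcnh3: aggaaggggctaGGACTgggaccccagca
Kcnk5 5′ UTR site: gctggaattaggGGACTctttctccagga
Kcnq3: cttgactcttctGGACTcatgtgtgagct

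The Cacna1b stretch lies in coding sequence at chr2:24679093-24679121 on the minus strand. Its GGACT lies outside the Mettl14 knockdown set 1 peak and across the edge of the Mettl14 knockdown set 2 peak. The Kcnj3 stretch (chr2:55595050-55595078, plus strand), the Kcnj4 stretch (chr15:79484772-79484800, minus strand) and the first Kcnk5 stretch (chr14:20141846-20141874, minus strand) are also coding. The stretches of Grik3 (chr4:125708889-125708917, plus strand), Grik5 (chr7:25010215-25010243, minus strand) and Kcnj12 (chr11:61070716-61070744, plus strand) lie in 3′ UTRs. The Kcnh3 stretch lies in coding sequence close to the stop codon, at chr15:99242335-99242363 on the plus strand. The second Kcnk5 stretch lies in the 5′ UTR at chr14:20181471-20181499 on the minus strand. The Kcnq3 stretch is coding, at chr15:65995512-65995540 on the minus strand. It lies outside the Mettl3 knockdown set 1 peak of that site, at chr15:65995268-65995466. In scramble set 1 the peak of Kcnn3 held no GGACT in its exonic bases. In all, 8 of the 9 sites with a peak in all 6 libraries held the motif, and 2 of the 4 with a peak in both scramble libraries alone.

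GGACT, searched on the transcript strand, was present in 29 of 50 exonic channel gene peaks of scramble set 1 (58.0%) and in 21 of 29 of set 2 (72.4%). Over all gene-linked scramble peaks the shares were 64.6% and 67.8%, and 42.9% of transcript stretches of 490 nt held one. These stretches include the peaks themselves. The shares are of unlike lengths, with a median of 474 and 503 exonic nt in channel gene peaks and 562 and 663 over all gene-linked peaks. Channel gene peaks carried 1.81 and 1.89 GGACT per kb, against 1.71 and 1.64 over all gene-linked peaks. Five-base DRACH matches, which include GGACT, were in 99.9% of such stretches and do not separate peaks from other sequence.

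Channel gene peaks of scramble set 1 were centred in coding sequence in 19 of 52 cases, within 200 nt of the end of the stop codon in 14, elsewhere in the 3′ UTR in 14, in the 5′ UTR in 3 and outside annotated exons in 2. In set 2 the counts were 18, 5, 5, 1 and 0 of 29. The share in the 3′ UTR beyond the stop codon window was 26.9% in set 1 and 17.2% in set 2, against 16.1% and 14.4% over all gene-linked peaks. The share in coding sequence was 36.5% and 62.1%, against 43.5% and 48.9%, so the 2 sets lay on opposite sides of the background.

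The scramble libraries held 52 and 29 channel gene peaks, on 36 and 21 genes, the Mettl14 knockdown libraries 34 and 29, on 25 and 23 genes, and the Mettl3 knockdown libraries 27 and 23, on 22 and 18 genes. Scramble set 1 was the highest of the 6, and scramble set 2 equalled one of the Mettl14 knockdown libraries, so the groups overlapped. The mean was 40.5 ± 16.3 (SD, n = 2) in scramble and 28.2 ± 4.57 (SD, n = 4) over both knockdowns, a difference of -12.2 peaks with p = 0.2 in an exact two-sided permutation test, whose smallest possible p is 0.0667. Per 1000 listed peaks the means were 5.96 and 5.73, with p = 0.8 in the same exact permutation test. Within the sets, the knockdown libraries held 34 and 27 peaks against 52 in set 1, and 29 and 23 against 29 in set 2, so no knockdown library exceeded its own scramble library. With the scramble label exchanged only within sets, an exact two-sided permutation test gave p = 0.222 for the counts and p = 0.889 per 1000 listed peaks, where the smallest possible p is 0.111. With this few libraries neither test can pass the usual threshold. Without scramble set 1 it was -0.75 peaks, and without scramble set 2 it was -23.8.

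**Figure D1:**
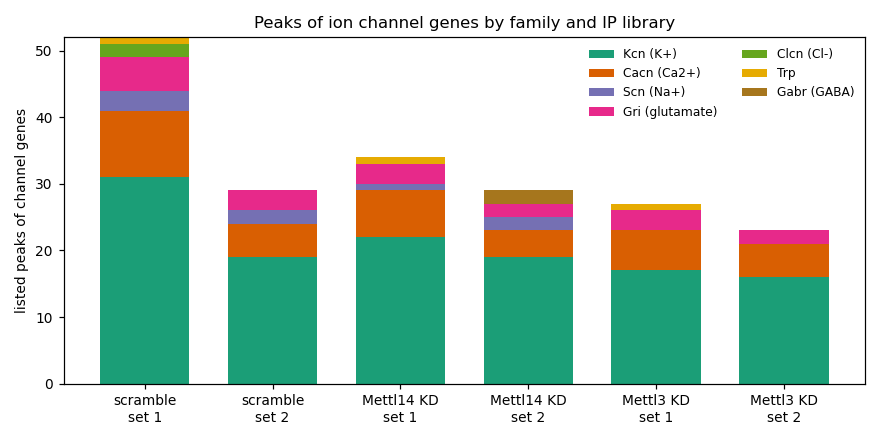
Number of listed peaks of ion channel genes (vertical axis) in each of the 6 IP libraries, stacked by family, with 1 bar per library and no error bar. Scramble set 1 holds 52 peaks and the other 5 libraries 23 to 34, with Kcn genes giving most peaks in every library.

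Peaks of channel genes were narrower, held fewer sequencing tags and had higher fold enrichment than gene-linked peaks at large. The fold enrichment is the authors' own value for each peak, scaled by them to the scramble library for the knockdowns. Its median over channel gene peaks was 36.1 and 24.0 in the scramble sets, against 15.5 and 15.3 over all gene-linked peaks. In the Mettl14 knockdown it was 37.1 and 21.5 against 13.9 and 9.49, and in the Mettl3 knockdown 33.2 and 12.3 against 17.1 and 7.07, so it was higher in 6 of 6 libraries. The median number of tags was 27.5 and 32 against 65 and 85 in the Mettl14 knockdown, and 40 and 42 against 74 and 76 in the Mettl3 knockdown. The median width was below that of all gene-linked peaks in 6 of 6 libraries, with 482 against 593 nt in scramble set 1 and 539 against 709 nt in scramble set 2. High enrichment values in these genes often rest on few tags, with 7 the fewest in a peak.

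A gene with a peak usually had just 1. In scramble set 1, 12 of 36 channel genes had more than 1 peak (33.3%, against 27.1% of all genes with a peak there), and in set 2 it was 7 of 21 (33.3% against 21.5%). No channel gene had more than 3 peaks in a library. Merging overlapping peaks on the same strand over all libraries gave 68 sites on the 47 genes. Of these, 25 sites on 18 genes had a peak in both scramble libraries, 14 sites on 13 genes had none in either, and 9 sites on 8 genes had a peak in all 6 libraries. Among the 14 without a scramble peak, 11 had a peak in just 1 knockdown library. No matching site count over all genes is given here, so these counts are a description.

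**Figure D2:**
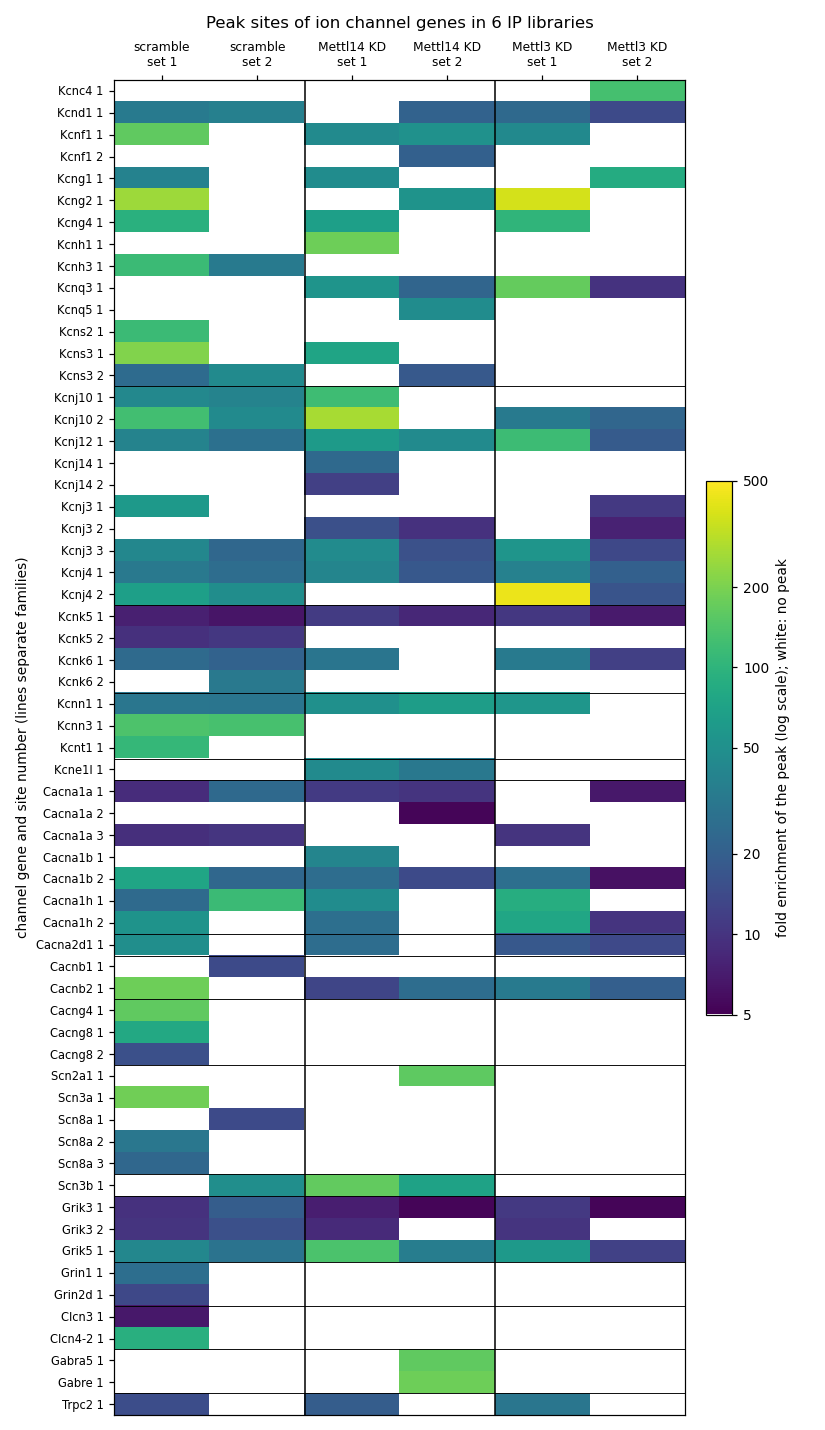
Fold enrichment (colour, log scale; white, no listed peak) at 61 of the 68 merged peak sites of channel genes (rows, grouped by family) in the 6 IP libraries (columns), taking the most enriched peak where a library lists several. Full rows are the 7 plotted sites with a peak in all 6 libraries, and most of the rest are filled in 1 library or in a few.

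A scramble peak was counted as lost when no peak of the knockdown library overlapped it by at least 1 nt on the same strand. In the Mettl14 knockdown 27 of 52 channel gene peaks of set 1 were lost (51.9%, 95% Wilson interval 38.7 to 64.9), against a background of 38.9% over all gene-linked scramble peaks. In set 2 it was 14 of 29 (48.3%, 31.4 to 65.6), against 41.2%. In the Mettl3 knockdown 25 of 52 were lost in set 1 (48.1%, 35.1 to 61.3), against 40.9%, and 16 of 29 in set 2 (55.2%, 37.5 to 71.6), against 36.6%. The share was above the background in each of the 4 tables, and the background lay inside the interval in 3 of them. These intervals cover counting error only.

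The scramble libraries also differed from each other. Of the 52 channel gene peaks of scramble set 1, 25 had no overlapping peak in scramble set 2 (48.1%, 35.1 to 61.3), against a background of 38.0%. Of the 29 of set 2, 5 had none in set 1 (17.2%, 7.6 to 34.5), against 12.2%. For set 1, the share absent from the other scramble library was as large as the share lost in the Mettl3 knockdown and near that in the Mettl14 knockdown. For set 2, it was smaller than the share lost in either knockdown, and scramble set 1 has the longest list of the 6 libraries. Limits on FDR and tags used the scramble value of lost peaks and the knockdown value of kept ones, so they filtered lost and kept peaks unlike. At an FDR of at most 1%, the lost share of channel genes was 36.8% (7 of 19) and 0.0% (0 of 9) in the Mettl14 knockdown sets. In the Mettl3 knockdown sets it was 27.3% (6 of 22) and 8.33% (1 of 12). Over all gene-linked peaks the same limit gave 20.7%, 11.2%, 22.1% and 5.28%, so channel genes lay below the background in Mettl14 set 2 and above it in the other 3 tables. At an FDR of at most 5% they lay below it in set 2 of both knockdowns, with 27.8% against 32.9% for Mettl14 and 25.0% against 27.4% for Mettl3. The position above the background in all 4 tables thus ended under both FDR limits. With at least 20 tags it stayed, with 50.0% and 50.0% against 37.2% and 39.7% for Mettl14. For Mettl3 the shares were 43.2% and 53.6%, against 38.5% and 35.3%. Because of the unlike filter, none of these limits decides whether the position holds.

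The lost share differed by peak width. Among channel gene peaks under 500 nt, 60.0% and 72.7% were lost in the Mettl14 knockdown sets and 63.3% and 81.8% in the Mettl3 knockdown sets, against 58.2%, 63.8%, 62.1% and 62.5% of all gene-linked peaks of that width. Among wider ones the shares were 40.9%, 33.3%, 27.3% and 38.9%, against 26.6%, 32.4%, 27.4% and 26.6%. The lost share was also higher among peaks without a GGACT than among peaks with one, in channel genes and over all genes, in each of the 4 tables. In channel genes the shares without and with GGACT were 61.9% and 41.4% in Mettl14 knockdown set 1 and 62.5% and 42.9% in set 2, and in the Mettl3 knockdown 61.9% and 34.5% in set 1 and 62.5% and 52.4% in set 2. In the same order, they were over all genes 46.9% and 32.2%, 50.9% and 35.1%, 50.5% and 33.4%, and 47.0% and 29.9%. The part of width in this was not tested.

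A knockdown peak was counted as new when no scramble peak of its set overlapped it. In the Mettl14 knockdown 8 of 34 channel gene peaks were new in set 1 (23.5%, 12.4 to 40.0), against a background of 15.2%, and 12 of 29 in set 2 (41.4%, 25.5 to 59.3), against 26.5%. In the Mettl3 knockdown 1 of 27 was new in set 1 (3.7%, 0.657 to 18.3), against 10.8%, and 9 of 23 in set 2 (39.1%, 22.2 to 59.2), against 23.7%. The sign of the distance from the background was thus not the same in all 4 tables, and the interval held the background in each. New peaks were more common in set 2, whose scramble library lists fewer peaks.

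**Figure D3:**
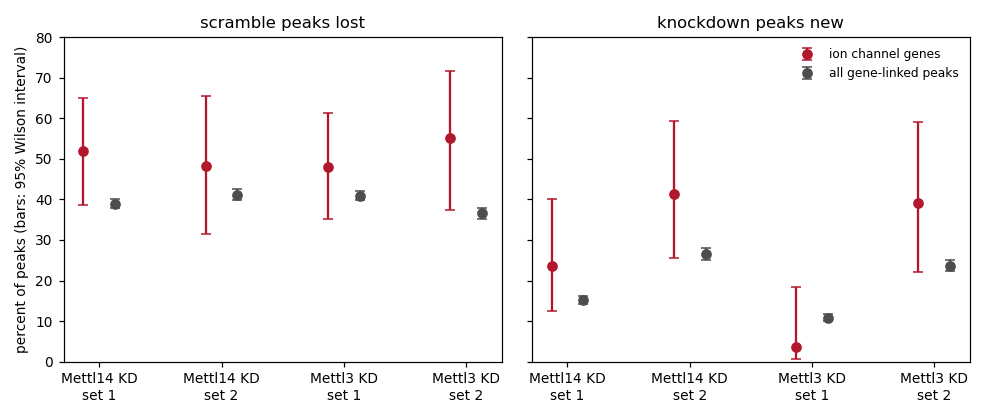
Percent of scramble peaks lost (left) and of knockdown peaks new (right) in each of the 4 tables, for channel genes (red) and all gene-linked peaks (grey), with 95% Wilson intervals as bars. The channel gene shares of lost peaks lie at 48.1% to 55.2%, above the grey points at 36.6% to 41.2%, and their intervals are wide.

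Among the 27 channel gene peaks of scramble set 1 that overlapped a peak of scramble set 2, 9 had a peak in all 4 knockdown libraries (33.3%), against a background of 51.1% over all such gene-linked peaks. No knockdown library held a peak for 5 of the 27 (18.5%), against 10.2%. The first group includes coding peaks of Kcnj3, Kcnj4, Kcnj12, Kcnk5 and Cacna1b, and the 3′ peaks of Grik3 and Grik5. The second includes peaks of Kcnh3, Kcnj4, Kcnk5 and Kcnn3.

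Where both libraries of a table have a peak, the tables give the knockdown over scramble ratio of scaled enrichment, used here as its log2. The median over all gene-linked pairs was not 0 in the authors' deposited tables: it was -0.07 and -0.6 in the Mettl14 knockdown sets and 0.2 and -0.91 in the Mettl3 knockdown sets. For channel genes the medians in the authors' deposited tables were 0.2 (26 pairs) and -0.57 (17 pairs) for Mettl14, and 0.38 (28 pairs) and -0.93 (14 pairs) for Mettl3. The share of pairs below 0 was 46.2% and 64.7% for Mettl14, against 55.5% and 86.2% over all gene-linked pairs, and 32.1% and 92.9% for Mettl3, against 35.7% and 93.9%. In Mettl14 set 1 the medians had opposite signs. Log2 values are given below as listed, and gene calls divide at 0, so a value below 0 in set 2 includes the shift of its whole table.

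Genes were also called per table. A lower call required all peaks of the gene in that table to be lost or to have a log2 below 0, and a higher call required all to be new or above 0. Of the 25 channel genes listed in both Mettl14 tables, 6 were lower in both (24.0%), against a background of 41.8% of all genes listed in both tables. Another 5 were higher in both, against a background of 7.55%, and 5 were lower in 1 set and higher in the other, against 26.1%. Of the 23 listed in both Mettl3 tables, 7 were lower in both (30.4%), against 33.5%, 1 was higher in both (4.35%), against 5.81%, and 6 had opposite calls (26.1%), against 35.5%. The 5 higher genes in the Mettl14 knockdown were Grik5, Kcne1l, Kcnn1, Kcnq3 and Scn3b. With at least 20 tags per peak 1 of those 5 calls remained, that of Grik5. With the median of all pairs set to 0, the Mettl14 calls in both sets stayed with the same 6 lower and 5 higher genes, and for Mettl3 Cacna1a and Grik3 joined the 7 lower genes.

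The pore subunits of voltage-gated potassium channels were the largest family, with 15 genes and 21 sites. They had 16 and 8 scramble peaks. Of these, 9 and 3 were lost in the Mettl14 knockdown sets and 8 and 5 in the Mettl3 knockdown sets. New peaks numbered 2 and 5 in the Mettl14 sets and 1 and 4 in the Mettl3 sets.

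Kcnh3, an ether-a-go-go type channel of the brain, had a single site at chr15:99242072-99242570, over the end of the coding sequence. Its enrichment was 115 (28 tags) in scramble set 1 and 33.4 (33 tags) in scramble set 2, and no knockdown library listed a peak there. Both scramble libraries stood apart from all 4 knockdown libraries at this site. The peak kept its call at an FDR of at most 5% and at 20 tags or more. Its FDR was 0.08% in scramble set 1 and 4.32% in scramble set 2, so the set 2 peak does not meet a limit of 1%.

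Kcnq3, a subunit of the M-current channel, had the reverse pattern. Its site near the end of the coding sequence, at chr15:65995268-65995736, had no peak in either scramble library. In the Mettl14 knockdown enrichment was 54.1 (12 tags) and 22.6 (17 tags), and in the Mettl3 knockdown 169 (9 tags) and 9.92 (21 tags). It was the only channel gene with a new peak in all 4 tables. The share of all genes with such a pattern is not given here, so whether it is unusual was not tested. At an FDR of at most 5%, or with at least 20 tags, the call ended in both knockdowns.

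Kcnd1, an A-type channel, was lower in both sets of both knockdowns. Its coding site at chrX:7823908-7824457 had enrichment 33.4 and 37.2 in scramble, no peak and 21.5 in the Mettl14 knockdown and 24.3 and 14.2 in the Mettl3 knockdown. Every listed knockdown value lay below both scramble values. Relative to the median of all pairs, the log2 was -0.19 in Mettl14 knockdown set 2 and -0.66 and -0.48 in the Mettl3 knockdown sets, computed from the authors' deposited tables.

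Kcnf1, Kcng1, Kcng2, Kcng4, Kcns2 and Kcns3 code for electrically silent subunits that modify other voltage-gated potassium channels. Kcns3 was lower in both Mettl14 sets, with its second site lost in set 1 and lower in set 2. The first had enrichment 208 (9 tags) in scramble set 1, in a peak of under 100 nt, and 74.3 (17 tags) in Mettl14 knockdown set 1. The second had 24.9 and 45.2 in scramble, no peak in Mettl14 knockdown set 1 and 18.3 in Mettl14 knockdown set 2. Neither had a peak in the Mettl3 knockdown. The lower call of Kcns3 ended in both knockdowns at an FDR of at most 5%. Kcnf1 had enrichment 162 in scramble set 1 and none in scramble set 2, against 45.1 and 51.6 in the Mettl14 knockdown and 44.5 in Mettl3 knockdown set 1. The call for Mettl14 was thus lower in set 1 and higher in set 2 while the knockdown values were close to each other. Kcng2 likewise had 255 in scramble set 1, 53.0 in Mettl14 knockdown set 2 and 371 in Mettl3 knockdown set 1, and no peak in the other 3 libraries.

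The rest of this family was listed in few libraries. Kcng1 was found in scramble set 1 (38.7), Mettl14 knockdown set 1 (46.7) and Mettl3 knockdown set 2 (85.2, with 7 tags). Kcng4 had 92.6 in scramble set 1, 67.6 in Mettl14 knockdown set 1 and 102 in Mettl3 knockdown set 1. Kcns2 had a peak in scramble set 1 alone, with 12 tags. Kcnh1 was seen in Mettl14 knockdown set 1 alone (8 tags), Kcnq5 in Mettl14 knockdown set 2 alone (16 tags) and Kcnc4 in Mettl3 knockdown set 2 alone (12 tags).

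The 5 inward rectifier genes had 10 sites, 3 of them with a peak in all 6 libraries. They had 8 and 5 scramble peaks, of which 3 and 2 were lost in the Mettl14 sets and 3 and 1 in the Mettl3 sets. Kcnj3, the G-protein-gated GIRK1 subunit, had a coding site at chr2:55594811-55595350 with enrichment 42.2 and 23.4 in scramble, 45.9 and 15.8 in the Mettl14 knockdown and 55.4 and 13.6 in the Mettl3 knockdown. All 3 set 1 values lay above all 3 set 2 values, while the groups overlapped. A second coding site, at chr2:55436992-55437635, had no scramble peak and enrichment 15.5 (46 tags) and 9.72 (35 tags) in the Mettl14 knockdown and 7.75 (55 tags) in Mettl3 knockdown set 2.

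Kcnj4 and Kcnj12, strong inward rectifiers, each had a long coding site in all 6 libraries. For Kcnj4, at chr15:79483992-79485917, enrichment was 32.3 and 26.1 in scramble, 40.9 and 17.7 in the Mettl14 knockdown and 38.2 and 20.7 in the Mettl3 knockdown. For Kcnj12, at chr11:61069308-61070859, it was 39.1 and 27.2, 61.1 and 45.2, and 117 and 18.7. These values are of the most enriched peak where a library lists several. The other Kcnj12 peaks had 33.7 (103 tags) and 15.7 (28 tags) in the Mettl14 knockdown sets and 35.2 (133 tags) in Mettl3 knockdown set 1. At Kcnj12 1 scramble peak often met 2 shorter knockdown peaks, whose log2 values had opposite signs in 3 of the authors' deposited tables. The value of 32.3 belongs to a second scramble set 1 peak upstream in the same site that no knockdown peak overlapped, and the one that they did overlap had 29.6. A further peak at chr15:79505206-79505911 was listed under Kcnj4, although only 36 nt of it were in its first exon. There enrichment was 67.4 and 48.3 in scramble and 438 and 16.7 in the Mettl3 knockdown, with no peak in the Mettl14 knockdown. Only the scramble set 1 peak carried the gene name.

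Kcnj10, the rectifier best known from glia, differed between the knockdowns in set 1. At its second 3′ UTR site, at chr1:172371575-172371991, enrichment was 125 and 45.3 in scramble, 273 in Mettl14 knockdown set 1 with no peak in set 2, and 33.1 and 23.1 in the Mettl3 knockdown. The Mettl3 values lay below both scramble values, and the Mettl14 value above both. Relative to the median of all pairs, the log2 was -2.12 and -0.06 in the Mettl3 knockdown sets and 1.2 in Mettl14 knockdown set 1. At the first 3′ UTR site it was 42.9 and 39.4 in scramble and 121 (7 tags) in Mettl14 knockdown set 1, with no peak elsewhere. The Mettl14 libraries thus differed from each other at this gene. Kcnj14 had 2 sites in Mettl14 knockdown set 1 alone, at 24.4 and 12.1.

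The two-pore channels were Kcnk5 and Kcnk6, which carry background potassium currents. Kcnk5 had a site with a peak in all 6 libraries and one with a peak in scramble alone. At the site in coding sequence and 3′ UTR, at chr14:20140596-20142636, enrichment was 7.57 and 7.43 in 2 neighbouring peaks of scramble set 1, 6.5 in scramble set 2, 11.2 and 8.31 in the Mettl14 knockdown and 10.5 and 6.99 in the Mettl3 knockdown, on 237 to 325 tags in the knockdown peaks. Each knockdown library lay above the scramble library of its set, with log2 0.59 and 0.35 for Mettl14 and 0.1 to 0.5 for Mettl3 in the authors' deposited tables, and also above 0 relative to the median, but the Mettl3 set 2 value lay below both scramble set 1 values. At the 5′ UTR site, at chr14:20181331-20181848, enrichment was 9.45 (92 tags) and 10.5 (87 tags) in scramble, and no knockdown library had a peak. In Mettl14 set 1, the scramble peak of 7.57 in the other site had no overlapping knockdown peak either, while that of 7.43 did.

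Kcnk6 had a 3′ UTR site with enrichment 24.5 and 21.4 in scramble, 29.9 in Mettl14 knockdown set 1 with no peak in set 2, and 33.1 and 12.0 in the Mettl3 knockdown. As listed, it was higher in set 1 and lower or lost in set 2 for both knockdowns. In Mettl3 set 2 the log2 was -0.83 in the authors' deposited table and 0.08 relative to the median of all pairs, so there the opposite direction ended. The other site was in scramble set 2 alone (32.3, on 22 tags).

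Among calcium- and sodium-activated potassium channels, Kcnn3 and Kcnn1 had opposite calls in the Mettl14 knockdown. Kcnn3, the SK3 subunit, had a coding peak at chr3:89521089-89521432 with enrichment 138 and 132 in scramble, on 15 tags in each, and none in the knockdowns. The call ended when 20 tags or an FDR of at most 5% were required. Kcnn1, the SK1 subunit, had a site over the stop codon at chr8:70843850-70844656 with enrichment 30.3 and 30.1 in scramble, 50.5 (26 tags) and 65.4 (17 tags) in the Mettl14 knockdown and 56.5 (31 tags) in Mettl3 knockdown set 1, with no peak in set 2. All 3 knockdown values were above both scramble values, and the fourth library had no peak. The log2 values were 0.74, 1.12 and 0.9 in the authors' deposited tables. Kcnt1, a sodium-activated channel, had a peak in scramble set 1 alone, outside annotated exons. The auxiliary subunit gene Kcne1l had a 3′ UTR peak in both Mettl14 knockdown libraries alone, at 45.1 (20 tags) and 31.4 (16 tags).

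The 8 Cacn genes had 13 sites, 10 and 5 scramble peaks, and 4 and 3 of these lost in the sets of each knockdown. The pore subunits Cacna1a, Cacna1b and Cacna1h form P/Q-type, N-type and T-type channels. At the Cacna1b coding site, at chr2:24678981-24679731, enrichment was 74.5 and 23.2 in scramble, 25.8 and 14 in the Mettl14 knockdown and 27.0 and 6.17 in the Mettl3 knockdown, with 64 to 77 tags in the knockdown peaks. Each knockdown value was below the scramble value of its set, and the scramble values of the sets differed widely from each other too. The log2 values in the authors' deposited tables were -1.53 and -0.73 for Mettl14 and -1.46 and -1.91 for Mettl3, or -1.46, -0.13, -1.66 and -1.0 relative to the median of all pairs. All 4 were also below 0 without the scaling constant. The Mettl14 knockdown set 1 library also had a new Cacna1b peak near the stop codon on 12 tags, so the gene was not called lower there.

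Cacna1a had a coding site at chr8:84558962-84559806 with enrichment 8.97 and 24.0 in scramble, 10.9 and 9.98 in the Mettl14 knockdown and 6.71 in Mettl3 knockdown set 2. Its site over the stop codon, at chr8:84639460-84640008, had enrichment 9.33 (125 tags) and 10.2 (106 tags) in scramble and 9.94 (68 tags) in Mettl3 knockdown set 1, and no peak in the other 3 knockdown libraries. The knockdown value lay between those of scramble. Cacna1h had 24.7 and 116 in scramble, 47.3 in Mettl14 knockdown set 1 and 89.1 in Mettl3 knockdown set 1 at its stop codon site.

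The other calcium channel genes code for subunits that bring the pore to the membrane or tune its gating. Cacnb2, a beta subunit, had a coding site at chr2:14985588-14985984 with enrichment 183 in scramble set 1, no peak in scramble set 2, 13.1 and 26.1 in the Mettl14 knockdown and 32.8 and 20.1 in the Mettl3 knockdown. The 4 knockdown values, 13.1 to 32.8, all lay below that of scramble set 1, and the scramble libraries disagreed. The log2 in set 1 was therefore -3.81 for Mettl14 and -2.48 for Mettl3 in the authors' deposited tables, while in set 2 the peak counted as new. Cacna2d1, an alpha2delta subunit, had 48.8 in scramble set 1, 26.0 in Mettl14 knockdown set 1 and 17.8 and 13.9 in the Mettl3 knockdown. The gamma subunit genes Cacng4 and Cacng8 had 3 peaks, all in scramble set 1 alone, and Cacnb1 had 1 in scramble set 2 alone.

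The sodium channel genes had few peaks and none in the Mettl3 knockdown. Scn8a, the Nav1.6 alpha subunit, had 2 peaks in scramble set 1, of enrichment 31.2 (36 tags) and 23.2 (39 tags), and 1 in scramble set 2, of 14.2 (66 tags), and all were lost in each table. No Scn8a site was shared by the scramble libraries: they lay at chr15:100936278-100936759, chr15:100940132-100940504 and chr15:101040309-101041051. The gene met the rule of loss in every table, yet each of its peaks was also absent from the other scramble library. At an FDR of at most 5% its lower call ended in both knockdowns. Scn3a had a coding peak in scramble set 1 (20 tags) and Scn2a1 in Mettl14 knockdown set 2 (12 tags). Scn3b, a beta subunit, had a 3′ UTR peak at 49.2 (25 tags) in scramble set 2 and at 165 (9 tags) and 71.6 (16 tags) in the Mettl14 knockdown.

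Of the glutamate receptor genes, the kainate subunits Grik3 and Grik5 had peaks throughout, and the NMDA subunits Grin1 and Grin2d had 1 each, in scramble set 1 alone. The long 3′ UTR site of Grik3, at chr4:125707907-125710310, had the most tags among channel gene peaks with a known tag count, 354 to 418 in the knockdown libraries. Its enrichment was 9.75 and 19.5 in scramble, 7.43 and 5.34 in the Mettl14 knockdown and 10.8 and 5.38 in the Mettl3 knockdown. Both set 2 knockdown values lay well below their scramble library, with log2 -1.87 and -1.85 in the authors' deposited tables, while those of set 1 were -0.39 and 0.15. Relative to the median of all pairs, the set 2 values became -1.27 for Mettl14 and -0.94 for Mettl3, and those of set 1 became -0.32 and -0.05. A second 3′ UTR site, at chr4:125711495-125712081, had 10.0 and 15.3 in scramble, 8.65 in Mettl14 knockdown set 1 and 10.0 in Mettl3 knockdown set 1.

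Grik5 had a site over the stop codon at chr7:25009926-25010696 with 42.4 and 28.9 in scramble, 135 (47 tags) and 35.3 (40 tags) in the Mettl14 knockdown and 61 (37 tags) and 12.3 (54 tags) in the Mettl3 knockdown. The log2 values were 1.67 and 0.29 for Mettl14 and 0.53 and -1.23 for Mettl3 in the authors' deposited tables. The Mettl14 values were higher in both sets, also relative to the median and without the scaling constant, and the Mettl3 values had opposite signs.

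**Figure D4:**
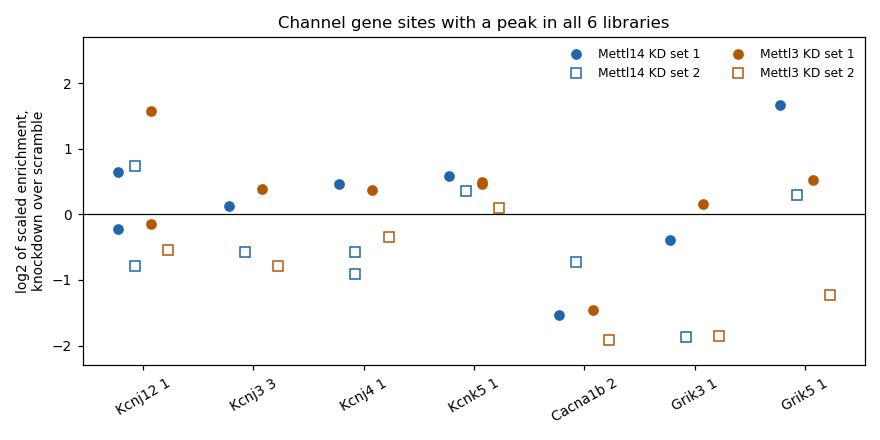
Log2 of the knockdown over scramble ratio of scaled enrichment (vertical axis) for each overlapping pair of peaks at 7 channel gene sites with a peak in all 6 libraries, by knockdown (colour) and set (filled circles, set 1; open squares, set 2). Cacna1b lies below 0 in each of the 4 tables and Kcnk5 above 0, and most other sites are higher in set 1 than in set 2.

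The remaining families were small. The chloride transporter and channel genes Clcn3 and Clcn4-2 each had a 3′ UTR peak in scramble set 1 alone, with 168 and 10 tags, so both were lost in both knockdowns of that set and unlisted in set 2. The GABA receptor subunits Gabra5 and Gabre had a peak in Mettl14 knockdown set 2 alone, at 162 (10 tags) and 182 (15 tags). Trpc2, the pheromone transduction channel, which GENCODE M21 names Xntrpc, had a peak at 14.8 in scramble set 1, 19.5 in Mettl14 knockdown set 1 and 30.6 in Mettl3 knockdown set 1, and none in set 2.

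Channel genes outside the symbol rule were counted in the same way. Of 109 such genes, among them the Hcn, Ano, Orai, Ryr and Lrrc8 families, 25 were listed, with 28 and 17 scramble peaks. In the Mettl14 knockdown 46.4% and 35.3% of these were lost, against 38.9% and 41.2% of all gene-linked peaks, and in the Mettl3 knockdown 42.9% and 41.2%, against 40.9% and 36.6%. Of 14 listed in both Mettl14 tables, 5 were lower in both (Ano6, Ano8, Orai1, Lrrc8a and Lrrc8d) and 1 higher (Orai2), and among the 13 listed for Mettl3 in both sets, Ano6 and Orai1 were lower and Hcn2 and Orai2 higher. Over all genes listed in both tables, 41.8% were lower in both Mettl14 sets and 33.5% in both Mettl3 sets. The shares higher in both sets were 7.55% for Mettl14 and 5.81% for Mettl3. Of 39 genes for anchoring and regulating partners, 15 were listed, with 24 and 17 scramble peaks, and 37.5% and 58.8% were lost in the Mettl14 knockdown and 45.8% and 47.1% in the Mettl3 knockdown, against the same background. Lower in both sets were 5 of 12 for Mettl14 and 6 of 13 for Mettl3. Homer1, Nedd4 and Camk2b were lower in both sets of both knockdowns. No partner gene was higher in both Mettl14 sets, and Shank2 was higher in both Mettl3 sets.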

How the data were processed

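The authors deposited 4 tables of m6A-IP peaks, each from 1 knockdown and 1 scramble library. Per the file headers, the deposited values are tag counts per peak, fold enrichment (a ratio, also scaled by a constant for the knockdown), a signed fold score, a peak score (-10 times log10 of p) and an FDR in percent. Listed FDR values reach 10%. Per the submitters' processing notes, mm10 was the genome build, and the tools were TopHat2 2.0.6, Picard 1.74, Bowtie 0.12.7, SAMtools 0.1.18, cutadapt 1.1 and CASAVA 1.8.2. The version of the peak caller and the annotation release were not given in the sources used here. Library depth is unknown.

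Peaks of each library were rebuilt from the tables with pandas 2.3.3 and compared by strand-specific overlap of at least 1 nt. The functions were tested on simulated peaks. Tag counts and FDR of scramble peaks are known only where a table lists the peak as lost. Regions and motifs come from GENCODE M21. Shares have 95% Wilson intervals, and peaks per library were compared by an exact two-sided permutation test (SciPy 1.17.1). For FDR and tag filters, lost peaks were filtered on their scramble value and shared or new peaks on their knockdown value. Other alternatives were an overlap covering 50% of the scramble peak, peaks in annotated exons, median centring, no scaling constant and leaving out a library or set. Members and lists were chosen with earlier results of these data known. Described in detail were genes lost in all 4 tables, new in all 4, lower or higher in both sets of a knockdown, opposite between sets, or with most scramble peaks overall or in a family. Others are given by range or level. Results for some members are not reported here one by one; the counts over all members include them.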

Additional observations from a re-analysis of the deposited data

How the results depend on the processing

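The lost share of channel gene peaks moved outside its interval in 6 settings. At an FDR of at most 1% it was 36.8% and 0.0% in the Mettl14 knockdown sets and 27.3% and 8.33% in the Mettl3 knockdown sets, and at 5% it was 27.8% and 25.0% in set 2 of Mettl14 and Mettl3. Over all gene-linked peaks the 1% limit gave 20.7%, 11.2%, 22.1% and 5.28%, and the 5% limit 32.9% and 27.4% in set 2. With at least 20 tags the share of channel genes stayed above that of all gene-linked peaks in all 4 tables. Each of these limits filtered lost peaks on the scramble value and kept peaks on the knockdown value. Genes higher in both Mettl14 sets numbered 3 at an FDR of at most 5% and 1 with at least 20 tags, against 5, and for Mettl3 it was 0 in both settings, against 1. Genes lower in both Mettl3 sets numbered 4 at an FDR of at most 5%, against 7. With a single set the lower genes numbered 13 to 22 for Mettl14 and 18 to 21 for Mettl3, and the higher genes 11 to 12 and 5 to 8. With the median of all pairs set to 0, 9 genes were lower in both Mettl3 sets, the added ones being Cacna1a and Grik3. Without 1 library the difference in peaks per library ranged from -23.8 (without scramble set 2) to -0.75 (without scramble set 1). The tables pair libraries by set, and the sets could not be matched to the replicate numbers of the labels. With the set as a replicate block, an alternative chosen after seeing the data, the difference was -12.2 peaks (exact permutation p = 0.222) and -0.233 per 1000 listed peaks (exact permutation p = 0.889). No per-library depth is given, so low tag counts limit most single sites.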
